A study of Mus musculus with 48 samples.

Results

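The comparison described here is that of P19 cells treated with Activin for 8 h (prolonged signalling) against P19 cells held in the inhibitor SB-431542 (no signalling), by the open chromatin that ATAC-seq detects. Its members are all regions with a peak in either state. Peaks of both lists were joined where they overlapped by at least 1 bp, which gave 257287 regions, of the 287329 that the peak lists of all 4 states of the study cover. The P19 cells are mouse embryonal carcinoma cells, a pluripotent line that secretes its own NODAL ligands. The 8 h Activin cells were kept overnight in SB-431542, washed, and given Activin A at 20 ng/ml for 8 h in full medium. The SB-431542 cells had the same overnight incubation and wash and then 1 h of fresh medium with 10 µM SB-431542, so the time since the medium change differs between the states and its part cannot be told apart from that of Activin. The other states, given here only as side values, are 1 h Activin and untreated cells, which signal through their own ligands. Each state has 2 biological replicates, merged by the authors before peaks were called, and 24 of the 48 labelled libraries belong to this comparison. With 1 list per state there is no spread between replicates, so no difference below has a test or a p-value, and every call is a description of these merged lists.

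NODAL and Activin bind a type II receptor (ACVR2A or ACVR2B), which phosphorylates a type I receptor of the ALK4/ALK7 kind (ACVR1B or ACVR1C), for NODAL with the co-receptor TDGF1 (CRIPTO). The active receptor phosphorylates SMAD2 and SMAD3, which enter the nucleus with SMAD4 and bind DNA together with partners such as FOXH1. SB-431542 blocks the kinases of the type I receptors. In the early mouse embryo the pathway patterns the epiblast and induces mesoderm and endoderm, through genes such as *Eomes*, *T* (Brachyury), *Mixl1* and *Gsc*, and it limits itself through the secreted inhibitors LEFTY1 and LEFTY2 and the intracellular inhibitors SMAD7, SKIL and PMEPA1. ATAC-seq uses a transposase that inserts sequencing adapters into accessible DNA, so a peak marks an open promoter, enhancer or other regulatory region.

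The 8 h Activin list held 209212 peaks over 161 Mb, and the SB-431542 list 234758 peaks over 183 Mb. The files give no read counts. A depth estimated from the lowest local background of the peaks was 79.3% of that of SB-431542 at 8 h Activin, and the shorter list and lower estimated depth touch every count of gained and lost regions below. The median fold enrichment, the read pileup at a peak over its local background, was 2.34 at 8 h Activin and 2.27 with SB-431542. Promoters of the pluripotency markers fixed for P19 cells were open in 7 of 8 genes at 8 h Activin, at 2.32 to 3.27, and in 8 of 8 with SB-431542, at 2.00 to 3.44, the missing one being that of *Dppa4*. Promoters of markers of other cell types had a peak in the same numbers in both states, 4 of 6 for blood, 2 of 4 for muscle and 2 of 5 for liver, with no peak at *Cd3e*, *Myog*, *Ckm*, *Alb*, *Apoa1* or *Ttr*. An open promoter does not show expression, and no RNA was measured in these libraries.

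The largest changes between the states were at distal regions, and the sequences below show what those regions held. Of the distal regions seen only with SB-431542 at a -log10 q of 20 or more, 61.7% (of 961) held an exact match to the AP-1 sequence TGANTCA in their central 300 bp, against 12.6% of all 247226 distal regions. Of the distal regions seen only at 8 h Activin at the same score, 19.2% (of 266) held the TCF/LEF sequence CTTTGAT and 16.9% the FOXH1 sequence AATNCACA, against 5.41% and 5.55% of all distal regions. AP-1 is bound by FOS and JUN family factors, TCF/LEF by the effectors of WNT signalling, and FOXH1 is the SMAD2/3 partner named above. The TEAD sequence GGAATG, bound by the partners of YAP1 and WWTR1, is marked where it lies beside AP-1. Matches were read on both strands. The FOXH1 and TEAD letters, and those of TCF/LEF and AP-1, can overlap each other at a site.

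The sequences are the central 300 bp of 5 regions, given as windows in GRCm38.p6 (mm10), plus strand, 5′ to 3′, with each match in capitals. They were chosen after their values and matches were seen, as examples of the motifs above. The risen *Pmepa1* window, 58.0 kb upstream of its start site at chr2:173334363-173334662, holds 1 FOXH1 match. The paper reports no FOXH1 site in the SMAD2-bound *Pmepa1* enhancer it studied, and unaffected *Pmepa1* induction in FOXH1 mutant clones. Whether this window is that enhancer was not tested. Of the 5 distal regions with the largest rise, and the 5 gained with the highest -log10 q, none held a FOXH1 match. The gained window 22.9 kb upstream of *Arl15*, at chr13:113771457-113771756, holds 2 TCF/LEF matches. The lost window 437 kb upstream of *Cdh5*, in an intron of 4933400L20Rik at chr8:103664799-103665098, and the fallen window 82.6 kb from *Polr1a*, at chr6:71991486-71991785, each hold 1 AP-1 and 1 TEAD match. The fallen promoter window of *Cldn4*, at chr5:134946949-134947248, holds 2 AP-1 matches. None of the 5 windows overlaps an annotated exon.
Pmepa1, risen: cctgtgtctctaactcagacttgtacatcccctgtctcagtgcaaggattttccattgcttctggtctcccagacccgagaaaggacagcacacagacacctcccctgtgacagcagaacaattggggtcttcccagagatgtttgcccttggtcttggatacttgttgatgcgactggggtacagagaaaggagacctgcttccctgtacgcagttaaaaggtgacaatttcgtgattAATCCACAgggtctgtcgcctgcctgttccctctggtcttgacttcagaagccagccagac
Arl15, gained: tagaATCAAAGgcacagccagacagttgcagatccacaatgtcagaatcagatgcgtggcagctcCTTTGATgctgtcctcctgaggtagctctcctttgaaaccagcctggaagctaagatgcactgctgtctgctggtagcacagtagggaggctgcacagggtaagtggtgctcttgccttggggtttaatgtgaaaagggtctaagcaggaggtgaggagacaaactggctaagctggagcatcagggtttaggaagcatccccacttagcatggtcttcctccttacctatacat
Cdh5, lost: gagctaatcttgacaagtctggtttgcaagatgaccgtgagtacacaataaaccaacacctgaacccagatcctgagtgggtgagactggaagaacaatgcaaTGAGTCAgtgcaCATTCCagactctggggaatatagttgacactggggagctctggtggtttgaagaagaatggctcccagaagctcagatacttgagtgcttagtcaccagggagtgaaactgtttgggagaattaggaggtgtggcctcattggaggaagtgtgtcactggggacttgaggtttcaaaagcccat
Polr1a, fallen: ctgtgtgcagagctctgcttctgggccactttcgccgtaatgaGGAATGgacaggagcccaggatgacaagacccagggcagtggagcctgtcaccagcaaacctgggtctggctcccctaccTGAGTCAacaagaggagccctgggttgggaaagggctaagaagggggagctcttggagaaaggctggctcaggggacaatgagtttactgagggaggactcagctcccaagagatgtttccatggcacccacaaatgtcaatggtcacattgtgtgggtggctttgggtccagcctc
Cldn4 promoter, fallen: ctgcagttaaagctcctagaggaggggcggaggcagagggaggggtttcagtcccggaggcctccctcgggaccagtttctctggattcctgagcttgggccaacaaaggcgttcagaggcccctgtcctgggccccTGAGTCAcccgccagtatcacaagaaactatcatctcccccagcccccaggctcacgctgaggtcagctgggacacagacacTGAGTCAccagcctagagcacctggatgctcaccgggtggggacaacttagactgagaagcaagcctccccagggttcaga

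At 8 h Activin 24202 regions were gained, that is, had a peak that SB-431542 cells lacked (9.41% of all regions), and 50449 were lost, with a peak only in SB-431542 cells (19.6%). Most of these were weak. The peak had a -log10 q under 5 in 78.7% of gained and 65.9% of lost regions, and its median fold enrichment was 1.84 in both classes. At a -log10 q of 20 or more, 269 regions were gained and 974 lost. Losses outnumbered gains 2.08 to 1. With the longer list cut by score to the length of the shorter, which makes the counts nearly equal by construction, 35231 were gained and 36214 lost. With only peaks of -log10 q 5 or more in either list, 12177 were gained and 38919 lost.

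The remaining 182636 regions had a peak in both states and are called shared. Each was ranked by its highest fold enrichment within each list, and a region is called risen or fallen where its percentile at 8 h Activin was more than 10 points above or below that with SB-431542. By this measure 35305 had risen (19.3%) and 34576 had fallen (18.9%), and the other 112755 are called steady. Risen regions had a median fold enrichment of 2.53 at 8 h Activin and 2.06 with SB-431542, and fallen regions of 2.05 at 8 h Activin and 2.58 with SB-431542. Peak width at 8 h Activin was at least 2 times that with SB-431542 in 7791 shared regions (4.27%, widened) and that much smaller in 13976 (7.65%, narrowed). Width and rank did not move as one: 2038 widened regions had risen and 2125 had fallen, and of the narrowed regions 3969 had risen and 3163 had fallen. Below, up means gained or risen (23.1% of all regions) and down means lost or fallen (33%). A percentile can shift through the local background as well as through the peak, so the log2 ratio of the pileup estimated from fold enrichment and -log10 p, scaled by its median over shared regions, is given as a second measure.

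The other states show where the changed regions lay between signalling and no signalling. Of the gained regions, 32.1% were also in the 1 h list and 53.0% in the untreated list, and of the lost regions 62.5% were in the 1 h list and 33.8% in the untreated one. The strong changes differed more. Of the 961 distal regions lost at a -log10 q of 20 or more, 98.1% were in the 1 h list and 22.8% in the untreated list. Of the 266 gained at that score, 39.8% were in the 1 h list and 91.4% in the untreated list. Among all distal regions the shares were 81.9% for the 1 h list and 77.2% for the untreated list. In the 2006 distal regions that fell by over 40 points the median stood at 3.17 with SB-431542, 2.87 at 1 h, 1.86 at 8 h and 1.99 in untreated cells. In the 1977 that rose by over 40 points it was 1.87 with SB-431542, 2.01 at 1 h, 3.18 at 8 h and 2.68 in untreated cells. Each median covers only the regions with a peak in that state. These were 99.5% of the fallen set at 1 h and 71.5% in untreated cells, and 84.5% and 96.9% of the risen set. In both sets the median at 1 h lay nearer to SB-431542 and that of untreated cells nearer to 8 h Activin.

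Promoters changed less often than other regions. A region counts as a promoter where its centre lies no more than 1000 bp before or 100 bp past the first base of a RefSeq transcript, which holds for 3.91% of all regions. The share was 0.826% of gained regions (95% Wilson interval 0.720 to 0.948, for counting error only), 0.823% of lost (0.747 to 0.905), 0.977% of risen (0.880 to 1.09) and 1.9% of fallen regions (1.76 to 2.05), against 7.49% of steady ones. Seen from the promoters, 1.99% of the 10061 were gained and 4.12% lost, against 9.71% and 20.2% of the 247226 other regions. Of the shared promoters 3.65% had risen and 6.96% had fallen, against 20.2% and 19.6% of other shared regions. Promoters were also seldom widened (0.974%) or narrowed (1.76%), against 4.45% and 7.97% elsewhere.

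Promoter peaks are strong, and by percentile the strongest peaks changed least, so strength was held alike. By estimated pileup beyond 0.5 on the scaled log2 scale this did not hold outside promoters. There 0.515% of shared regions in the lowest 20 percentile points had a higher pileup, against 5.91% in the top 20. For promoters these shares were 0.735% and 0.225%. Among shared regions in the top 20 percentile points of mean rank, 0.364% of promoters had risen and 1.06% had fallen, against 6.26% and 5.02% of other regions. In the band from the 40th to the 60th percentile, 12.5% of promoters had risen and 20.7% had fallen, against 26.0% and 25.6% elsewhere. In each of the 5 bands of strength fewer promoters had risen than other regions. In the 2 lowest bands more promoters had fallen, 25.4% against 17.4% and 33.1% against 28.1%. With distance from the nearest coding start site, the share risen went up by steps, 16.4% at 1 to 10 kb, 18.7% at 10 to 50 kb, 21.2% at 50 to 100 kb, 22.8% at 100 to 500 kb and 23.3% beyond 500 kb. The share fallen stayed between 19.2% and 20.8% over the same bins. Strength was not held alike between these bins. The median fold enrichment was 2.44 at 8 h Activin and 2.45 with SB-431542 at 1 to 10 kb, and 2.06 and 1.99 beyond 500 kb. The part of strength in these steps was not tested.

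**Figure D1:**
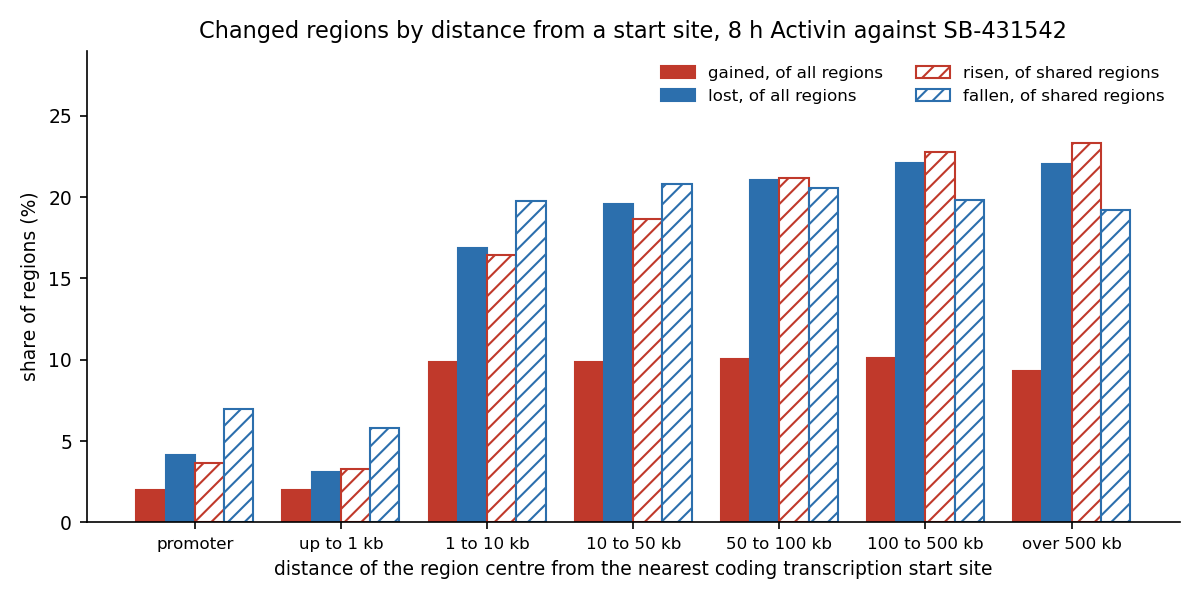
Share of regions that changed between 8 h Activin and SB-431542 (%), for promoters and by distance of the region centre from the nearest coding start site. Red bars are gained and risen, blue bars lost and fallen, filled bars are shares of all regions and hatched bars shares of shared regions. Promoters, whose regions also enter the distance bins, have 1.99% gained and 4.12% lost, and regions 100 to 500 kb away 10.1% and 22.1%.

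The coding promoters with the largest shifts belonged to genes of many kinds. The largest rise was at *Pglyrp1*, which encodes a peptidoglycan recognition protein, at 3.01 at 8 h Activin against 1.70 with SB-431542 (58.5 points). It was followed by *Flacc1* (4.84 against 2.17), the vomeronasal receptor gene *Vmn2r24* (2.82 against 1.88), the interferon-induced *Ifit1* (2.40 against 1.68), the neuronal transcription factor gene *Neurod6* (2.48 against 1.74) and 4930550C14Rik (2.56 against 1.81). The promoter that fell most was that of *Arhgef10l*, a gene for a guanine nucleotide exchange factor, at 1.54 at 8 h Activin against 3.33 with SB-431542 (-69.9 points). The promoter of *Cldn4*, which encodes the tight junction protein claudin 4, had an enrichment of 2.02 at 8 h Activin and 5.15 with SB-431542, and stood at 4.41 at 1 h and 2.40 in untreated cells. At *Fgf21*, which encodes an endocrine FGF, the values were 1.78 and 3.39. *Nap1l5* (1.72 against 2.70) and *Pate1* (1.74 against 2.74) complete the fallen ones. The estimated pileup moved in the same direction at each of these, with scaled log2 ratios of 0.50 to 1.39 for the risen promoters and -1.40 to -0.59 for the fallen ones.

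Of the coding promoters, 147 were gained and 294 lost. The gained promoter with the highest score was that of *Svs1*, a seminal vesicle secretory protein gene, at 4.34 (-log10 q 34.1) and 2.91 in untreated cells. *Vsig8* (1.2), *Fhad1* (2.14), *Coq10a* (2.05), which acts in coenzyme Q function, and the opsin gene *Opn5* (2.1) followed. The estimated background under the *Vsig8* peak was 2189 reads per bp, against a median of 24.4 over shared regions at 8 h Activin. At *Coq10a* the 1 h list held a peak of 5.68, and with all 4 lists merged its region was called down. The lost promoters were those of *Mobp*, a myelin protein gene (4.04 with SB-431542, -log10 q 34.8), *Fam71e2* (3.74), *Spata31d1d* (2.66), the kallikrein gene *Klk6* (3.32) and the membrane protein gene *Emp3* (1.97). All 5 lost promoters had a peak at 1 h Activin and none had one in untreated cells.

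Among distal regions the 5 with the largest rise went up by 86.7 to 96.3 points. The first lies in an intron of *Galntl6*, 278 kb upstream of *Galnt7*, chr8:57930936-57931752, and its fold enrichment was 6.36 at 8 h Activin against 1.56 with SB-431542, and 3.88 at 1 h and 5.25 in untreated cells, and 88.7% of its central window is repeat. A region in an intron of *Camta1*, 265 kb from Gm13090, had 6.26 at 8 h Activin and 1.71 with SB-431542, and one 432 kb from *Gata3*, a transcription factor gene, in an intron of Gm13219, had 6.23 and 1.74. The others lie 229 kb upstream of *Ankrd55* (5.55 against 1.61) and 20.6 kb upstream of *L3mbtl4* (4.85 against 1.63). The pileup ratios of the 5 were 1.75 to 3.10 on the scaled log2 scale. All 5 had a peak in untreated cells, at 2.84 to 5.25. The SB-431542 peak was near the bottom of its list in each case.

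The 5 distal regions that fell most lay near genes of steroid, SMAD, thyroid hormone, ribosomal RNA and lactate biology. The first is in an intron of *Cyp7b1*, an oxysterol hydroxylase gene, with 1.62 at 8 h Activin against 5.71 with SB-431542, and all of its central 300 bp is annotated as repeat. The next lies 36.9 kb upstream of *Smad2* itself, at chr18:76204493-76205142, with 1.70 at 8 h Activin against 5.49 with SB-431542. At this *Smad2* region the 1 h list held a peak of 4.91 and the untreated list none. *Dio2*, which encodes the deiodinase that activates thyroid hormone, had its region 135 kb upstream at 1.65 against 4.90. The regions near *Polr1a*, for a subunit of RNA polymerase I, and *Slc16a1*, for a lactate transporter, had 1.64 against 4.8 and 1.67 against 4.64. At the *Smad2* start site the promoter stayed steady, at 4.65 at 8 h Activin and 4.48 with SB-431542.

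The distal gains and losses with the highest scores were as follows. *Csmd1* (7.75, 300 kb upstream), *Arl15* (7.57), *Nuak1* (6.65, 343 kb away in an intron of Gm34184) and *Oxr1* (3.54, in its own intron) each had a peak at 8 h Activin and none with SB-431542, and a weaker one of 2.18 to 4.66 in untreated cells. The highest -log10 q of all gained regions, 187, belonged to one 53.2 kb upstream of *Calm2* with a fold enrichment of only 1.09, over an estimated background of 99783 reads per bp. The lost regions had as nearest coding genes *Cdh8* (7.97, 1408 kb away), *Cdh5* (7.39, 437 kb), *Prmt6* (6.85, 1441 kb), *Olig3* (6.80, 23.9 kb) and *Noct* (3.45, 3.42 kb), and the central 300 bp were wholly repeat at *Cdh8*, *Prmt6* and *Olig3*. All 5 lost regions had a peak at 1 h Activin, at 3.50 to 6.48. Untreated cells had a peak at *Cdh5* (2.60) and *Prmt6* (1.89) only. The nearest genes at such distances are place names, and no link between region and gene was measured.

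By gene, 142630 regions lay within 100 kb of a coding start site and were assigned to the nearest one, which gave 19476 genes with a median of 5 regions. More up than down regions were counted for 4464 genes and more down than up for 9044, and the numbers were equal for 5968. The largest excess of up regions was at *Fhit*, a large gene across a common fragile site, with 20 up and 6 down of 39. *Gm20594* had 17 up and 4 down of 32, *Cxcl12*, which encodes a chemokine that guides migrating cells, 16 up and 3 down of 28, and *Gmnc*, a regulator of multiciliated cells, 15 up and 2 down of 33. *Frmd4a* (19 up, 7 down of 48), *Katnal1* (13 up, 1 down of 29), *Rybp*, for a Polycomb protein (20 up, 9 down of 40), and *C2cd5* (14 up, 3 down of 28) completed the 8. By share, *Mrc1* and *Sult2a4* led with 70% of 10 regions up, then *Gpr158* with 69.2% of 13, *Vmn2r18* with 66.7% of 12 and *Dppa4* with 64.3% of 14. Among the 4806 genes with 10 or more regions the median share up was 21.4%.

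The largest excess of down regions was at *Mgat4c*, a glycosyltransferase gene, with 12 up and 56 down of 110. *Cep112* had 15 up and 34 down of 75. *Emcn*, for the endothelial protein endomucin, *Chd7*, for a chromatin remodeller (4 up, 21 down of 33), *B3galt2* (0 up, 17 down of 29) and *Foxp1*, for a forkhead transcription factor (16 up, 32 down of 91), followed. By share, *Chst9* and *Slc5a8* had 83.3% of 18 and of 12 regions down, *Rab30* 81.2% of 16, *Mal2* 80% of 20 and *Clvs1* 80% of 10. Several of these depend on the list lengths. With lists of equal length the excess of down regions was 23 at *Mgat4c*, 14 at *Chd7* and 13 at *B3galt2*, but 6 at *Emcn* and 1 at *Cep112*. With peaks of -log10 q 5 or more only, *Frmd4a* kept an excess of 12 up, *Gmnc* of 10 and *Foxp1* of 20 down, and *Gm20594*, *Rybp*, *Emcn*, *Dppa4* and *Vmn2r18* had none.

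**Figure D2:**
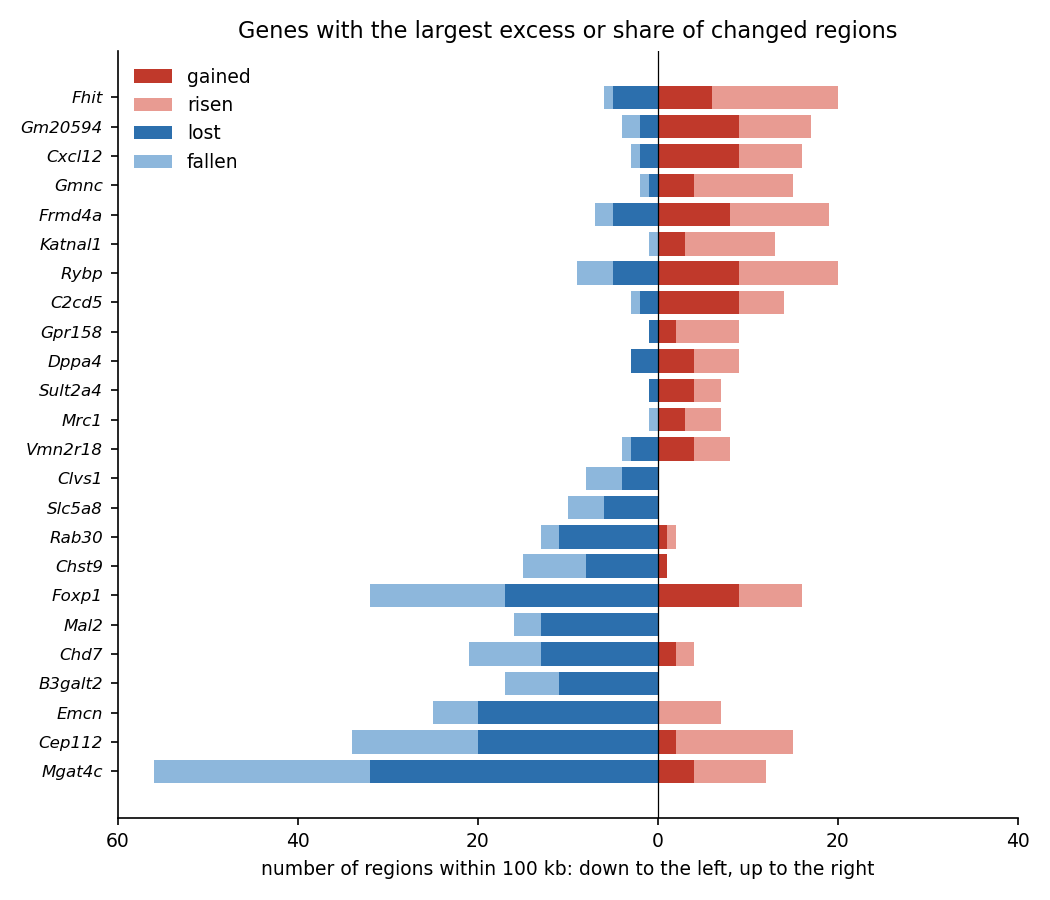
Numbers of regions assigned to each named gene (nearest coding start site within 100 kb), up to the right (gained dark red, risen light red) and down to the left (lost dark blue, fallen light blue), for 8 h Activin against SB-431542. *Fhit* has 20 up and 6 down at the top, and *Mgat4c* 12 up and 56 down at the bottom.

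Neighbouring regions seldom moved as a block. Of the regions next to an up region, 24.7% were up, against 23.1% of all regions, and of those next to a down region 34.8% were down, against 33%. A cluster is a run of at least 5 up regions, or 5 down regions, each within 20 kb of the next, with no region of the opposite call between them. There were 581 up clusters with 5.49% of the up regions, the longest of 14, and 2111 down clusters with 15.2% of the down regions, the longest of 20. With lists of equal length the order was turned round, with 1277 up clusters and 942 down clusters. Clustered regions lay farther from start sites than others, with a median of 124 kb against 94.2 kb for up regions and 121 kb against 85.5 kb for down regions. The longest clusters are described as places, without a test.

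The longest up cluster lay upstream of *Pmepa1*, which encodes a transmembrane protein that sequesters SMAD2 and SMAD3. It ran over 103 kb, chr2:173314480-173417427, beginning 38.3 kb upstream of the *Pmepa1* start site and reaching toward 1700021F07Rik, all intergenic. Of its 18 regions 12 were gained, 2 had risen, 4 were steady and none was down. The strongest score was at the region 58.0 kb upstream whose sequence is printed above, chr2:173333520-173335505, which had 3.64 at 8 h Activin against 2.77 with SB-431542, and 3.30 at 1 h and 3.35 in untreated cells. Its estimated pileup was 411 reads per bp at 8 h Activin and 104 with SB-431542, a scaled log2 ratio of 2.35. The other risen region, at the far end, had 4.17 at 8 h Activin and 2.94 with SB-431542. The 12 gained regions were weak, at 1.65 to 2.15, and only 3 of the 14 up regions had a -log10 q of 5 or more. With peaks of that score only, up regions exceeded down regions by 2 in this stretch, and with lists of equal length by 14. Nearer to the gene the picture was mixed: within 50 kb of the start site 9 of 20 regions were up and 9 down, and the promoter had 3.72 at 8 h Activin against 3.11 with SB-431542 (12.4 points). A region 18.3 kb downstream of the start site, chr2:173257643-173258910, had 3.54 at 8 h Activin and 2.01 with SB-431542, and 3.39 at 1 h and 2.33 in untreated cells. Its pileup was 376 reads per bp at 8 h Activin and 63.7 with SB-431542, the highest ratio around the gene (2.92). Of the 9 down regions near *Pmepa1* 2 were lost and 7 had fallen, and 6 of the fallen ones had a scaled pileup ratio above 0 (0.12 to 0.96).

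**Figure D3:**
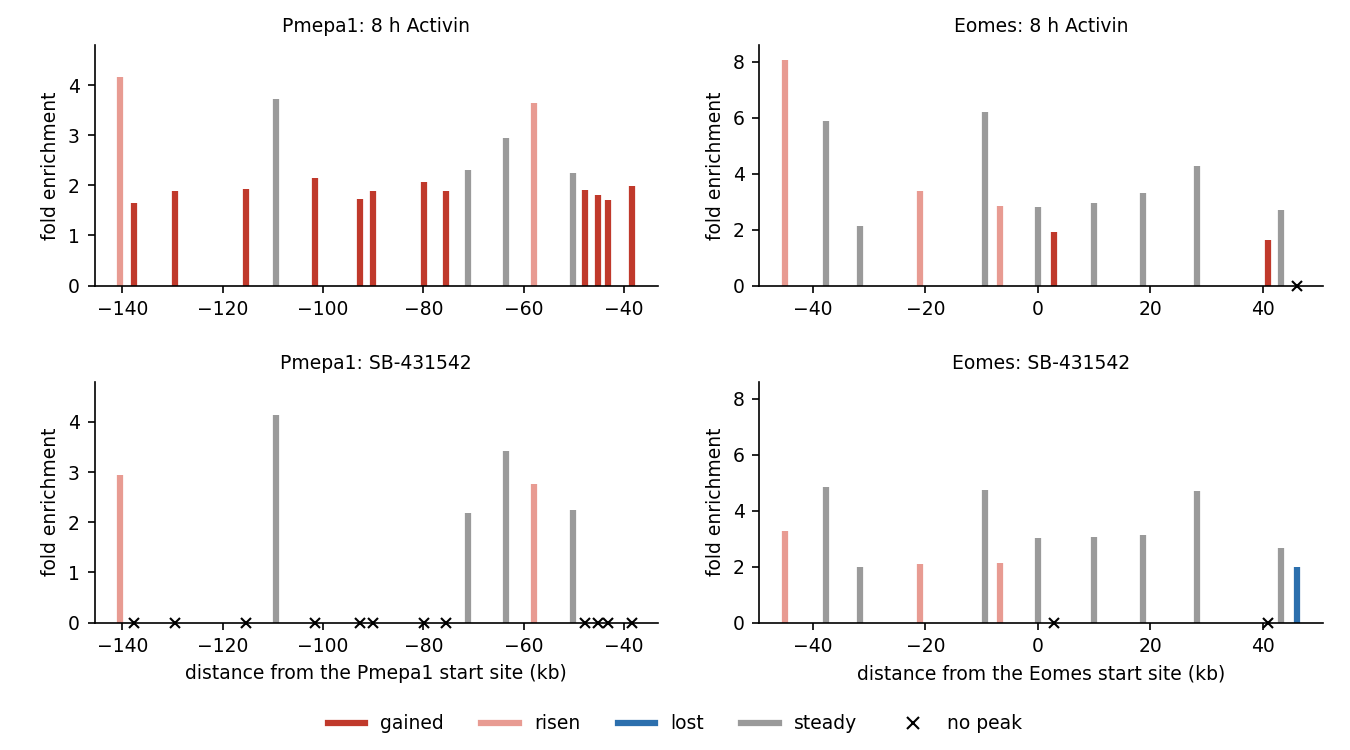
Fold enrichment (ratio) of each region at 8 h Activin (top) and with SB-431542 (bottom), against distance from the start site (kb), for the *Pmepa1* cluster (left) and the 50 kb around *Eomes* (right). Bar colours give the call (gained dark red, risen light red, lost blue, steady grey) and crosses mark regions without a peak in that state. Of the *Pmepa1* regions 12 have a cross with SB-431542, and the *Eomes* region at -44.9 kb stands at 8.08 at 8 h Activin and 3.25 with SB-431542.

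The other up clusters lay within or beside single genes. At *Ankfn1* 11 of 20 regions were up and none down over 109 kb, from 14.4 kb upstream to 93.6 kb downstream of the start site, with 5.32 at 8 h Activin against 3.66 with SB-431542 at its strongest region and 5.10 against 3.39 at another. At *Ccdc85a* all 10 regions of a 40.1 kb stretch were up, and at *Cxcl12* all 10 of a 53.2 kb stretch 16.8 to 68.7 kb upstream. The *Cxcl12* region nearest the gene had 4.39 at 8 h Activin and 3.28 with SB-431542, and one at -35.7 kb was gained at 3.74. At *C2cd5* 10 of 15 regions were up around the start site, where the region centred 0.27 kb downstream was steady at 5.29 at 8 h Activin and 5.52 with SB-431542. With peaks of -log10 q 5 or more only, the excess of up regions was 5 at *Ccdc85a* and 3 each at *Cxcl12*, *Ankfn1* and *C2cd5*.

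Of the 5 longest down clusters 4 lay 348 kb or more from any coding start site, and 1 lay across that of *Gm8882*, whose promoter was steady. The first, between *Mei4*, a meiotic recombination gene, and *Irak1bp1*, had 20 of 32 regions down over 162 kb (14 lost, 6 fallen), none within 348 kb of either start site. The strongest *Mei4* region had 3.07 at 8 h Activin against 4.08 with SB-431542. The others had 17 of 28 regions down near *Gm8882*, 17 of 23 near *Htr1a*, for a serotonin receptor, 17 of 22 near *Cdh9*, for a cadherin, and 16 of 26 near *Pla2g4a*, for a phospholipase. The median repeat content of the windows was 34% to 72.3% in these 5 clusters, against 7.33% to 14% in the 5 up clusters. Over the regions of all clusters the medians lay close together, at 18.7% for down and 16.7% for up. Most of their peaks were weak, with median -log10 q of 3.02 to 5.70, and at a -log10 q of 5 or more the excess of down regions was 6 to 12.

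The genes of the pathway were taken in lists, each described by the regions within 50 kb of its members, where 20.2% of regions near any coding gene were up and 29.8% down. The mesendoderm genes had the highest share up, 33.5% of 185 regions, and 19.5% down, and 11 of 17 members had more up than down regions. By the assignment to the nearest start site within 100 kb, a different count, 22.9% of all genes did. FGF pathway genes had 32.0% up and 26.0% down, pluripotency genes 28.1% and 23.3%, WNT pathway genes and targets 27.8% and 25.4%, and NODAL/Activin targets 28.1% and 32.2%. The receptors, ligands and SMADs of the pathway had 17.8% up and 35.6% down, the SMAD inhibitors 23.7% and 35.9%, BMP ligands and targets 17.7% and 32.0%, TEAD/YAP genes 20.8% and 36.3%, EMT genes and cadherins 20.0% and 33.1%, AP-1 and immediate early genes 15.0% and 29%, neural genes 15.2% and 22.8%, and housekeeping genes 10.7% and 24.8%. By estimated pileup, where 11.7% of regions near coding genes were up and 20.1% down, mesendoderm genes had 25.4% up and 11.9% down and NODAL/Activin targets 28.1% and 16.9%. Within 10 kb the order changed, with 34.6% up for FGF genes, 31.4% for SMAD inhibitors and 20.8% for mesendoderm genes, against 15.8% near coding genes. Several genes stand in more than 1 list and share regions.

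**Figure D4:**
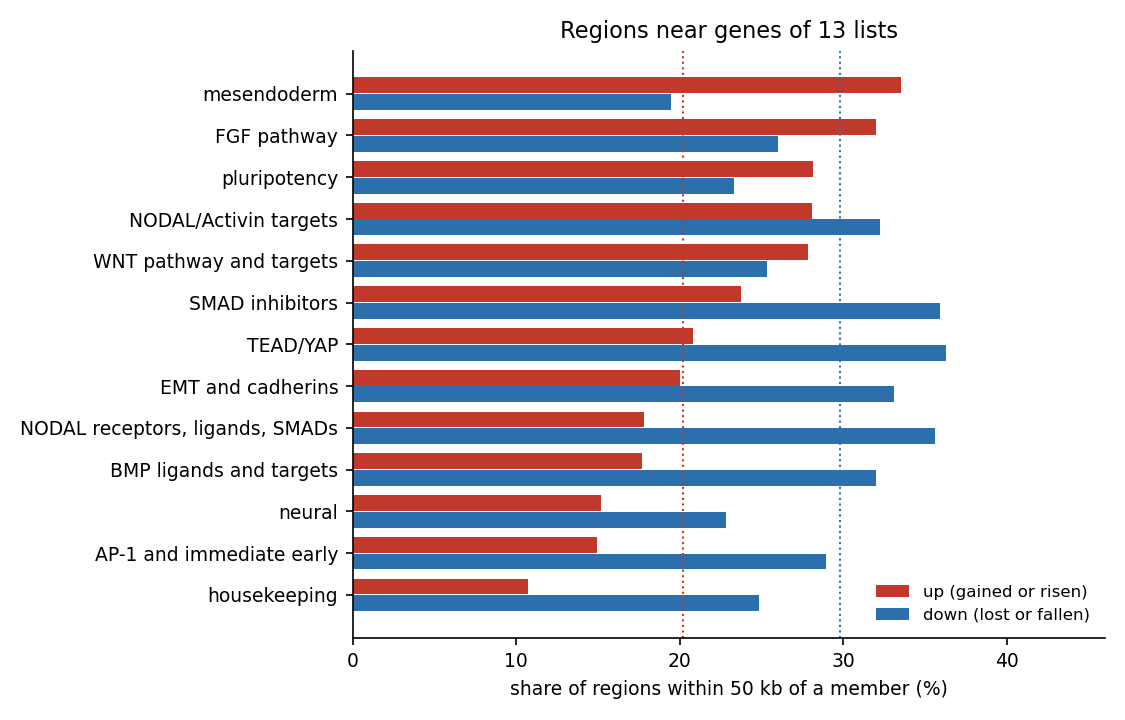
Share of regions within 50 kb of a list's members that were up (red) or down (blue) at 8 h Activin against SB-431542 (%). Dotted lines mark the shares near all coding genes, 20.2% up and 29.8% down, and the mesendoderm list stands at 33.5% up and 19.5% down.

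Among the mesendoderm genes, *Eomes*, a T-box factor needed for endoderm and mesoderm formation, had 5 up and 1 down of 14 regions. Its region 44.9 kb upstream, chr9:118432627-118433852, in an intron of 4933432G23Rik, had an enrichment of 8.08 at 8 h Activin against 3.25 with SB-431542, and 3.95 at 1 h and 7.24 in untreated cells. The -log10 q was 257 at 8 h Activin and 21.2 with SB-431542, and the pileup ratio 2.64 on the scaled log2 scale. Regions 21.0 kb and 6.74 kb upstream of *Eomes* had 3.37 against 2.1 and 2.86 against 2.13. At -9.32 kb the percentile was steady, at 6.2 against 4.74, while the scaled log2 pileup was 1.43 higher. The *Eomes* promoter was steady, at 2.79 at 8 h Activin and 3.02 with SB-431542, so the up calls lay outside it.

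*T*, which encodes Brachyury, had 5 up and 0 down of 14 regions, its promoter among them at 2.37 at 8 h Activin against 1.96 with SB-431542 (22.2 points). The region 13 kb upstream of *T* had 3.28 and 2.21. *Mixl1*, a homeobox gene of the primitive streak, had 3 up and 0 down of 5, the strongest in an intron of *Lin9* at 6.42 at 8 h Activin against 2.98 with SB-431542. *Msgn1*, a factor of presomitic mesoderm, had 8 up and 0 down of 11, though the largest fold enrichment among them, 11.4 kb downstream, was 3.82 against 3.08. *Gsc* had 7 up and 4 down of 18. *Hand1*, a heart and extraembryonic factor, went the other way, with 1 up and 7 down of 13. *Gata6*, an endoderm factor, had 1 up and 2 down of 8 and a steady promoter. Near any coding gene 20.2% of regions were up and 29.8% down. *Mesp1* had 6 up and 3 down of 12, but its promoter had fallen, at 3.06 against 4.23.

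Among the direct targets of the pathway, *Lefty1* had 2 up and 6 down of 14 regions by percentile. Its region 10.0 kb upstream was steady, at 5.95 at 8 h Activin against 4.86 with SB-431542, but its estimated pileup was 523 reads per bp at 8 h Activin and 191 with SB-431542, a scaled log2 ratio of 1.81. The region 1.80 kb downstream of the *Lefty1* start site was called fallen by 53.5 points, at 1.66 against 2.72, with a pileup ratio of 0.41. The measures thus had opposite signs there, where the local background was higher. *Nodal* had 3 up and 3 down of 14. A region 6.01 kb downstream of the *Nodal* start site fell by both measures, with 2.07 at 8 h Activin and 4.53 with SB-431542 (pileup ratio -0.78), and the one 11.8 kb upstream had 5.92 and 4.65 (1.17). *Smad7* had 5 up and 11 down of 21 and *Skil* 3 up and 10 down of 19. Of the 16 targets, 5 had more up than down regions and 8 more down than up. Among all genes, counted by nearest start site within 100 kb instead, 22.9% had more up and 46.4% more down.

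The receptors and SMADs kept their promoters: all 16 genes of that list had a promoter peak in both states and each was steady. Around them 41 of 191 regions were lost and 16 gained, close to the shares over all regions (19.6% and 9.41%). *Smad4*, the common SMAD, had 0 up and 7 down of 10 regions, and the strongest lost region, 39.1 kb downstream, had 3.11 with SB-431542 and 3.16 at 1 h. *Acvr1c* (ALK7) had 2 up and 8 down of 17 and *Tgfbr2* 2 up and 8 down of 13. *Tdgf1*, the co-receptor gene, went the other way with 7 up and 3 down of 14, and the NODAL partner ligand gene *Gdf3* had 7 of each in 24. Of the SMAD inhibitors, *Fst*, for the Activin antagonist follistatin, had a risen promoter (3.33 against 2.60) amid 2 up and 7 down of 10 regions, and *Ldlrad4* had 3 up and 1 down of 12.

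In the WNT list, *Sp5*, a transcription factor gene induced by WNT, had 6 up and 1 down of 9 regions, with its promoter at 3.50 at 8 h Activin against 2.48 with SB-431542 (26.3 points). *Nkd1* and *Dkk1*, both for inhibitors of WNT signalling, had 6 up and 1 down of 11 and 4 up and 0 down of 7. *Lef1*, for a nuclear effector, had a risen promoter (2.91 against 2.35) with 6 up and 11 down of 27 regions. *Ctnnb1*, for beta-catenin, had 0 up and 4 down of 8. In the FGF list *Spred1*, for an inhibitor of RAS/ERK signalling, had 9 up and 2 down of 16, the largest at -17.5 kb with 5.13 at 8 h Activin against 1.97 with SB-431542, 2.57 at 1 h and 3.25 in untreated cells. *Fgf4* and *Fgf15* each had 8 up and 2 down, of 18 and 20, and the *Fgf8* promoter had risen (2.21 against 1.9). *Etv5* had 3 up and 6 down of 18. In both lists most promoters were steady, 15 of 20 and 13 of 15.

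Of the pluripotency genes, *Dppa4* had 11 up and 4 down of 18 regions within 50 kb, an excess that its assigned regions did not show at a -log10 q of 5 or more, and its promoter peak was among the lost ones (2.00 with SB-431542). The *Pou5f1* promoter was steady, at 3.26 at 8 h Activin and 3.22 with SB-431542, as was that of *Sox2* at 2.32 and 2.35, and that of *Nanog* was just over the threshold at 3.16 and 2.81 (10.1 points). *Lin28a* had 0 up and 6 down of 12. Among the cadherin genes, *Cdh2* (N-cadherin) had 1 up and 13 down of 16 regions, with 9 lost and a steady promoter of 2.96 at 8 h Activin and 3.02 with SB-431542. The largest loss of *Cdh2*, 6.50 kb upstream, had 3.16 with SB-431542 and no peak at 8 h Activin or in untreated cells. *Epcam* had 2 up and 0 down of 7.

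Of the 12 TEAD/YAP promoters, taken by any overlap with the promoter window, 3 had fallen. Among all shared coding promoters, taken by region centre instead, 5.97% had fallen. Of the 16 promoters in the AP-1 list 1 had fallen, 1 had risen and 1 was lost. *Ankrd1*, a target of YAP1, had a promoter of 2.20 at 8 h Activin against 3.68 with SB-431542 (-37.8 points), *Ccn2* of 2.76 against 3.85 and *Ajuba*, for a LIM protein of the Hippo pathway, of 2.25 against 2.79. In the AP-1 list, *Dusp1*, an immediate early phosphatase gene, had 3.02 against 3.74, *Ier2* 2.23 against 2.02 (11.8 points), and *Jund*, for an AP-1 subunit, a peak of 1.77 with SB-431542 and none at 8 h Activin. *Jun* had 0 up and 6 down of 12 regions, *Fosb* 0 up and 5 down of 19 and *Tead1* 2 up and 8 down of 17. The *Jun* promoter was steady at 2.76 at 8 h Activin and 2.88 with SB-431542. *Klf6* had 6 up and 7 down of 19, and *Ier3*, with 2 up and 0 down of 10, had the largest excess of up regions in the list. *Hes5*, a Notch target in the neural list, had a fallen promoter (2.00 against 2.43) and 2 up and 7 down of 14. Of the BMP targets *Id1* had 2 up and 7 down of 19. For scale, the housekeeping genes ranged between 0 up and 7 down of 18 at *Actb* and 5 up and 1 down of 12 at *Gapdh*.

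Across the distal regions, motif shares changed in steps with the size of the change. The AP-1 share was 61.7% in regions lost at a -log10 q of 20 or more, 34.3% in those lost at 5 to 20 and 16.8% in those lost below 5. Among shared distal regions it was 38.5% in those that fell by over 40 points, 20.6% at 20 to 40 points, 13.1% at 10 to 20 points and 8.80% in steady ones, and it was 8.25% in those that rose by over 40 points. TEAD followed the same order at 34.3%, 25.2% and 21.2% in lost regions, against 18.9% of all distal regions. Of the 593 strongly lost regions with an AP-1 match, all had a peak at 1 h Activin and 17% had one in untreated cells, and of the 368 without a match 95.1% and 32.1% did.

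On the gained side the order ran the other way for TCF/LEF, FOXH1 and the ZIC sequence CAGCAGG, bound by zinc finger factors of the ZIC family. TCF/LEF matches were in 7.45% of distal regions gained below a -log10 q of 5, 12.1% at 5 to 20 and 19.2% at 20 or more, and in 13.4% of those that rose by over 40 points. FOXH1 matches were in 6.85%, 9.52% and 16.9% of the gained bands, and in 9.0% of the strongly risen regions. ZIC matches were in 14.2%, 22.8% and 23.7%, and in 23.2% of the strongly risen regions, against 12.3% of all distal regions. The order was not particular to these sequences. The forkhead sequence GTAAACA was in 3.90%, 4.85% and 7.52% of the gained bands, and the OCT sequence ATGCAAAT in 2.68%, 3.53% and 5.64%. T-box and SOX (ACAATGG) shares also rose, and that of SOX rose over the lost bands too, to 9.89%. The share with a peak at 1 h differed between motifs in the gained set of -log10 q 20 or more, where a region can hold several motifs. Of 45 regions with a FOXH1 match 64.4% had a peak at 1 h Activin, of 51 with TCF/LEF 29.4%, and of 63 with ZIC 22.2%, against 39.8% of the whole set. A high share was not particular to FOXH1, with 54.5% of 44 for TEAD and 56.25% of 16 for AP-1. In the strongly risen regions the shares lay closer, at 91.0% for FOXH1, 86.7% for TCF/LEF and 81.7% for ZIC, against 84.5% of all of them. The SMAD palindrome GTCTAGAC was rare, in 1.13% of that set and 0.267% of all distal regions. The NFY letters CCAAT were at 40.6% and 39.6%. Within the central 150 bp, a window chosen after the data were seen, AP-1 was in 51.0% of the strongly lost regions against 7.33% of all distal ones, FOXH1 in 11.3% of the strongly gained against 2.78%, and TCF/LEF in 10.5% against 2.75%. A match states that these letters are present and not that a factor was bound.

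**Figure D5:**
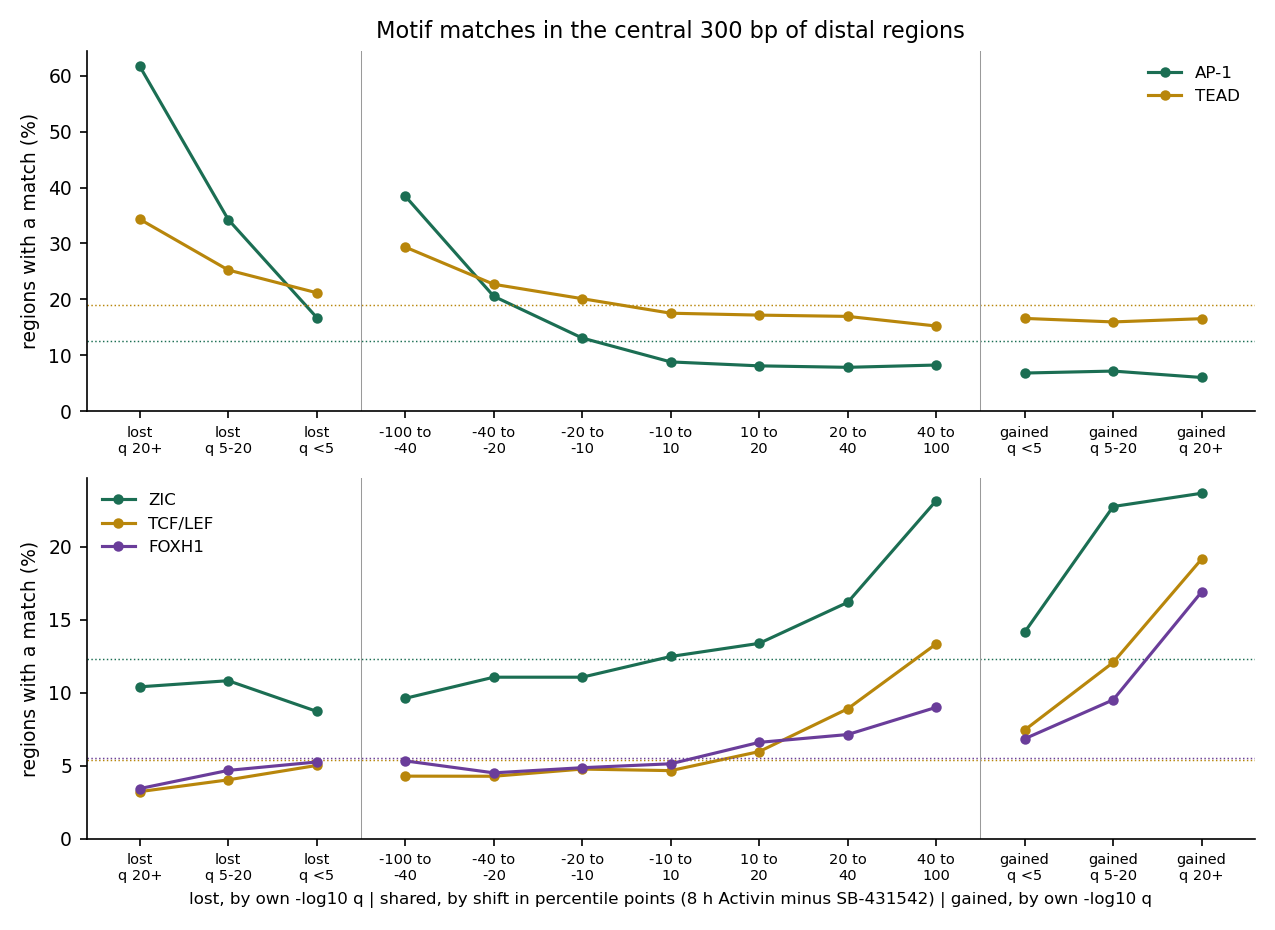
Share of distal regions with a match in the central 300 bp (%), for AP-1 and TEAD (top) and ZIC, TCF/LEF and FOXH1 (bottom). Regions run left to right through those lost, by -log10 q of their SB-431542 peak, those shared, by shift in percentile points (8 h Activin minus SB-431542), and those gained, by -log10 q of their 8 h Activin peak, and dotted lines mark the shares in all distal regions. AP-1 falls to 6.02% at the right end, against 61.7% at the left end, and TCF/LEF stands at 19.2% at the right end and 3.23% at the left end.

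The most changed widths were found near *Efhb*, *Nodal* and *Gpr179* for widened regions and near *Basp1*, *F2rl1* and *Robo2* for narrowed ones, regions named after their values were seen. A region 9.38 kb downstream of the *Nodal* start site was 3418 bp wide at 8 h Activin and 299 bp with SB-431542, with 1.96 and 1.72 in fold enrichment. The *Efhb* region was 2612 bp wide at 8 h Activin and 224 bp with SB-431542, and the *Gpr179* region 2233 bp and 200 bp. The *Basp1* region was 225 bp wide at 8 h Activin and 3199 bp with SB-431542, the *F2rl1* region 204 bp and 2868 bp, and the *Robo2* region 200 bp and 2771 bp. Fold enrichments were at most 2.46 in either state, the highest at *F2rl1* with SB-431542. The others lay below the list medians of 2.34 at 8 h Activin and 2.27 with SB-431542.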

How the data were processed

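P19 cells were profiled by ATAC-seq, with 100000 cells per reaction and 12 PCR cycles. Per the labels and the study's methods the authors used cutadapt 1.9.1 for trimming and BWA 0.6.2 for alignment against the mm10 genome, merged the libraries of a state with Picard (version not given in the sources used here), removed duplicates, and called broad peaks with MACS2 2.1.1.20160309, each read shifted and extended around the transposase cut. bedtools 2.26.0 stands in the submitters' processing notes. The deposited lists give for each peak a fold enrichment (a ratio of pileup to local background) and the -log10 p-value and -log10 q-value of the authors' peak caller, the lowest -log10 q being 1.02. They hold no read counts. The study gives a range of reads for the merged samples but no value per state, so the relative depth was estimated from fold enrichment and -log10 p under a Poisson model, and the estimate for 8 h Activin relative to SB-431542 lies below the lowest ratio that this range allows.

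Python 3.11.15 with pandas 2.3.3, numpy 2.4.6, scipy 1.17.1 and pysam 0.24.0 was used. Peaks of the 8 h Activin and SB-431542 lists were merged, and classed as gained, lost, risen, fallen, widened or narrowed as the results define. Start sites came from 45756 RefSeq transcripts of 26180 genes, 21000 of them coding. For list members and markers a region counts as the promoter if any part of it overlaps the promoter window, otherwise by its centre. The code for the calls was run on simulated lists with known changes, without noise or a difference in depth. This checks the code and not the calls in the real lists.

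Genes were named by rule: the 8 genes with the largest excess of up and of down regions, the 5 with the highest share of each among genes with at least 10 regions, the 6 coding promoters with the largest rise and fall and the 5 gained and lost with the highest -log10 q, the 5 longest clusters of each direction, the distal regions by the same rules (5 each), the extreme members of each list, and loci the study discusses. Some genes that the rules name, and the sequence of one window, are not reported here. Other members given with values, and the widened and narrowed regions, were picked after their values were seen. The members and lists were chosen with earlier results of these data known. The alternatives were lists cut to equal length, only peaks of -log10 q 5 or more, a merge of all 4 lists, scaled log2 fold enrichment or estimated pileup beyond 0.5, a shift over 20 points, under 50% coverage for gained and lost, promoters by any overlap, 50 kb between clustered regions, and a window of 10 kb for the lists.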

Additional observations from a re-analysis of the deposited data

How the results depend on the processing

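No paired analysis was possible because the replicates of a state were merged before peaks were called and the lists carry no replicate number. With a minimum -log10 q of 5 there were 12177 gained, 3513 widened and 6417 narrowed regions, 116 up and 1082 down clusters, and promoter shares of 1.12% (lost), 1.54% (risen) and 3.78% (fallen), against 5.68% of all such regions. Lists of equal length gave 1277 up and 942 down clusters and a promoter share of 0.961% of lost regions. Scaled log2 fold enrichment beyond 0.5 gave 5562 risen, 5679 fallen, and 65 up and 931 down clusters. Estimated pileup beyond 0.5 gave 8289 risen, 8451 fallen, 122 up and 1088 down clusters, and promoter shares of 0.808% (risen) and 2.31% (fallen). Its up shares were 11.5% for the NODAL receptors and SMADs, 25.4% for mesendoderm, 18% for WNT, 23.0% for FGF, 5.14% for BMP, 18.9% for pluripotency, 7.02% for neural, 11.7% for EMT, 9.81% for AP-1, 11.9% for TEAD/YAP and 5.37% for housekeeping genes, against 11.7% near all coding genes. A shift over 20 points gave 13867 risen, 13769 fallen, 154 up and 1278 down clusters, and promoter shares of 0.786% (risen) and 1.43% (fallen). Promoters by any overlap were 1.21% of gained, 1.05% of lost, 1.89% of risen and 3.18% of fallen regions, against 6.71% of all. A gap of 50 kb gave 1137 up and 3803 down clusters. Within 10 kb the up share was 31.4% for SMAD inhibitors, 20.8% for mesendoderm, 21.5% for WNT, 21.9% for pluripotency and 14.3% for EMT genes, against 15.8%. The cause of these moves was not tested. The direction held for 78 of 78 named genes and regions under equal length, log2 fold enrichment and pileup, for 73 with the minimum -log10 q, and for 77 in the merge of all 4 lists, where the *Coq10a* promoter region turned to -1 (down). Only the sign was counted, and log2 fold enrichment and pileup leave gained and lost calls as they are. The items were picked as the extremes of these same lists, so a kept sign was largely set beforehand and says little about them. The size moved beyond a set margin, or the direction was lost, for 28 of the 78 with the minimum -log10 q. It moved for 10 under equal length, 23 under log2 fold enrichment and 17 under pileup. The pileup alternative for the lists and the central 150 bp and low-repeat windows for the motifs were chosen after the data were seen. The lists limit all of this: 1 merged list per state gives no error, list lengths and depth differ, and a region missing from a list may lie just under its threshold.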
